A study of Mus musculus with 2 samples.

Results

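The 10 genes described here encode the machinery that displays peptides on the cell surface, namely Cd74, H2-Aa, H2-Ab1 and H2-Eb1 of the class II pathway, H2-D1, H2-K1 and B2m of the class I complex, and Tap1, Tap2 and Tapbp of the peptide loading machinery. They were taken by symbol from the 31053 genes of the count matrices, and all 10 were found. The set was put together because Cd74 and H2-D1 had the highest ratios of OLE to vehicle in microglia, so the microglial ratios chose the members and are given below as a description, with no test. Together the members held 13466 of the 129711192 UMIs of the retained nuclei. A UMI (unique molecular identifier) marks 1 captured RNA molecule, and UMIs are the unit of every count below. OLE is N-oleoyl-leucine, a fatty acid joined to an amino acid, of the kind made by the enzyme PM20D1. Male APP/PS1 mice, a transgenic line that deposits amyloid in the brain, were given OLE (C18:1-Leu in the labels) at 25 mg/kg/day or the DMSO vehicle in alkaline drinking water, starting at 15 months and ending at 18. Nuclei of the entorhinal cortex taken at 18 months were sequenced in 1 library per treatment, each a pool of 5 mice. Both groups carried the APP/PS1 transgenes and no library of wild-type mice was analysed here, so every comparison is of treatment within an amyloid model. With 1 library a side there was no replicate and no test was run. Intervals in parentheses are exact 95% intervals for counting error and leave out any variation among mice, pools and preparations.

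Class I molecules sit on nearly all nucleated cells and show peptides made inside the cell to CD8 T cells. Peptides cut by the proteasome are carried into the endoplasmic reticulum by the transporter that Tap1 and Tap2 form, and tapasin, the product of Tapbp, holds the empty class I molecule beside it until a peptide binds. Class II molecules are made by antigen presenting cells, show peptides from the endosome to CD4 T cells, and reach that compartment with the invariant chain, which Cd74 encodes. In the brain the class II genes are known mainly from border macrophages, dendritic cells and activated microglia, and resting neurons carry little class I.

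On the mouse build GRCm38, with the positions of GENCODE vM21, 8 of the 10 members lie on chromosome 17, all of them in the H2 region. Along that region lie Tapbp (chr17:33915899-33929292), H2-K1 (chr17:33996017-34000347), Tap1 (chr17:34187553-34197225), Tap2 (chr17:34203527-34216321), H2-Ab1 (chr17:34257689-34269419), H2-Aa (chr17:34282744-34287823), H2-Eb1 (chr17:34305867-34316674) and H2-D1 (chr17:35262730-35267499). B2m, the light chain that every class I molecule shares, lies on chromosome 2 (chr2:122147686-122153083). The counts are of whole genes, introns included, with no exon resolved. H2-D1 and H2-K1 are close paralogs, so how reads that match both were counted bears on their levels, and their counts are uncertain to that extent. Tapbp overlaps Zbtb22 on its own strand, while Tap1, Tap2, B2m, H2-Eb1 and Tapbp overlap genes of the other strand, Psmb9 among them. The sources used here do not state whether strand was used in counting, so reads of these pairs may not be told apart.

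The upstream sequences of the class I and class II genes are shown because their members are compared as groups below, and both groups are known to be controlled through short conserved boxes near the start of the gene. RefSeq promoters (GRCm38.p6) matched 7 of the 10 members, with none for Cd74, H2-Ab1 and Tap2. Positions are counted backwards from the start site, and capitals mark the matches on either strand to 4 sets of letters searched over the 250 bases before each start. These were enhancer A, whose letters are the first run of capitals in the H2-D1 and H2-K1 stretches, the interferon regulatory factor core (AANNGAAA), the X box core (AGCAAC) and the Y box core (ATTGG, on the other strand CCAAT). They do not overlap in the stretches shown.
H2-D1 (chr17:35262923-35262951, plus strand, -171 to -143): GGGGATTCCCcatctcctcagTTTCACTT
H2-K1 (chr17:34000430-34000458, minus strand, -111 to -83): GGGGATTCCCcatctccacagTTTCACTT
B2m (chr2:122147550-122147638, plus strand, -137 to -49): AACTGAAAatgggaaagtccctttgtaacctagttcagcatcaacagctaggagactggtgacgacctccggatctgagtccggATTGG
H2-Aa (chr17:34287867-34288036, minus strand, -213 to -44): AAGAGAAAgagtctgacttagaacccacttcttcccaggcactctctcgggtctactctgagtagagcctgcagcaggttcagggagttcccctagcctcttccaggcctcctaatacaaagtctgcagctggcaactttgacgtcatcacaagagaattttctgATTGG
H2-Eb1 (chr17:34305775-34305836, plus strand, -92 to -31): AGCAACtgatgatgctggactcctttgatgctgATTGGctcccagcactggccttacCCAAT
The stretches of H2-D1 and H2-K1 run from enhancer A to the interferon regulatory factor core and agree at 28 of 29 bases, with T18A as the difference, counted from the first base shown (H2-D1 base first). In GENCODE a transcript of H2-D1 starts further upstream, so that its stretch lies in a 5′ untranslated region there. Enhancer A was found in the promoters of these 2 members and in 22 of all 27025 promoters (0.0814%). The interferon regulatory factor core was found in 21.6% of all promoters, the X box core in 12.3% and the Y box core in 34.5%. Of the 7 members matched, H2-Eb1 alone held the X box core letters. A match describes the letters and not a site that is bound.

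The vehicle library held 70845739 UMIs over 6745 nuclei and the OLE library 69485537 over 6173, with a median per nucleus of 3989 and 6392 UMIs, and 14 barcodes occurred in both libraries. The totals were thus close while the median nucleus was deeper in the OLE library. With likely doublets removed, 6373 nuclei of the vehicle and 5862 of the OLE library fell into 26 clusters, which were named from marker genes as microglia-like, endothelial and mural-like, vascular leptomeningeal-like, astrocyte-like, oligodendrocyte-like, oligodendrocyte precursor-like (OPC-like), GABAergic-like or glutamatergic-like. Clusters 0, 1, 3, 20, 21 and 22 stayed unnamed. Clusters 0 and 1 were split by library, with 2235 vehicle and 305 OLE nuclei in cluster 0 and 245 and 1730 in cluster 1. Their joint median was 2360 UMIs in the vehicle and 4739 in the OLE library. Among the named classes the OLE median was higher only in endothelial and mural-like (3768 and 4392.5) and OPC-like nuclei (7046 and 7313). The cause of the split was not tested. A level, in CPM, is the number of UMIs of a gene for every 1000000 UMIs of its class and library, and a log2 ratio compares the OLE level with the vehicle level. Microglia-like nuclei numbered 333 in the vehicle and 268 in the OLE library, with medians of 2441 and 2348 UMIs, and 14 of 15 microglial markers were detected in at least 10% of them. Ratios were not centred on 0 for all kinds of gene. Over genes with at least 20 UMIs the median log2 ratio lay between 0.00 and 0.09 in the named classes, while that of housekeeping genes lay between 0.14 and 0.59.

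Class II genes were found at appreciable levels in few places. Cd74 lies outside the H2 region, at chr18:60803848-60812652 on GRCm38. The level of Cd74 in microglia-like nuclei was 84.0 (65.8 to 106) CPM in the vehicle and 193 (162 to 228) in the OLE library. The next named class in the vehicle library stood at 4.27 (0.108 to 23.8), on 1 UMI, and in the OLE library the endothelial and mural-like class stood at 23.7 (7.70 to 55.4), on 5 UMIs. In both libraries the microglial interval lay above that of every other named class, and below second place the intervals of neighbouring classes overlapped. Glutamatergic-like nuclei stood at 0.807 and 0.840 CPM. Microglia-like nuclei were also first for the alpha and beta chains H2-Aa, H2-Ab1 and H2-Eb1, with an interval that overlapped the next class for H2-Eb1 in the vehicle library alone. Summed over the 4 genes, the class II level of microglia-like nuclei was 197 CPM in the vehicle and 364 in the OLE library, against 1.66 and 1.66 in glutamatergic-like nuclei. Outside the named classes, cluster 22 had a higher class II level than microglia-like nuclei, 565 and 625 CPM, and cluster 3 had 218 and 158. Clusters 0 and 1 together stood lower, at 26.8 and 24.9 CPM, but well above glutamatergic-like nuclei. Being large, they held 177 and 248 class II UMIs, beside 171 and 260 in microglia-like nuclei. Their class II log2 ratio was -0.11 (-0.39 to 0.18).

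**Figure D1:**
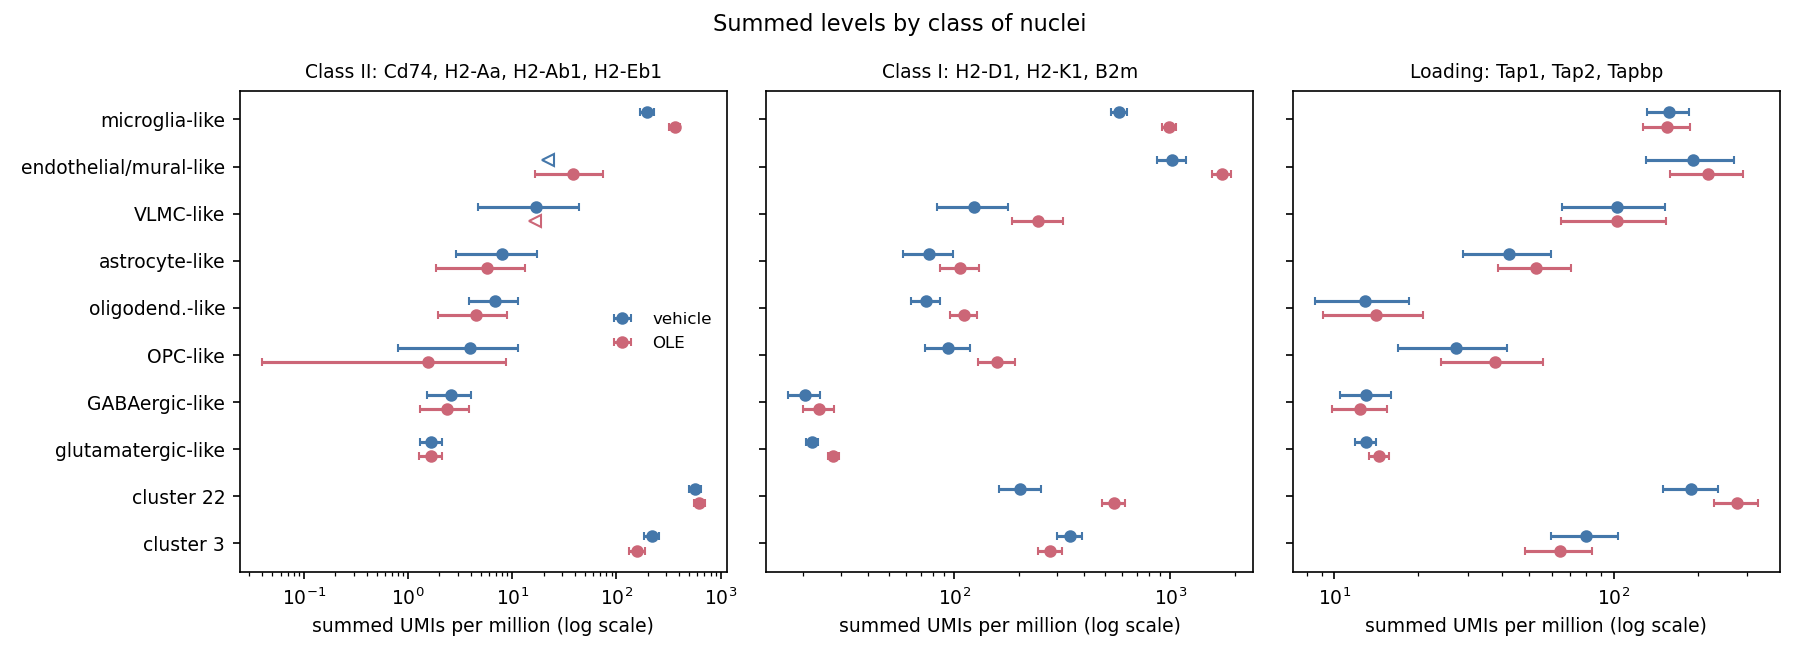
Summed level of the class II, class I and peptide loading members in each named class and in the unnamed clusters 22 and 3 (points, CPM on a log scale, with 95% Poisson intervals as bars, and open triangles at the upper limit where no UMI was found). Blue is the vehicle and red the OLE library, and VLMC stands for vascular leptomeningeal cells. Class II stands apart in microglia-like nuclei and clusters 22 and 3, class I is highest in endothelial and mural-like and microglia-like nuclei, and neurons are lowest for class I.

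In microglia-like nuclei Cd74 and H2-Ab1 were higher in the OLE library, with Cd74 ahead. Cd74 was counted 73 times in the vehicle and 138 times in the OLE library, a log2 ratio of 1.20 (0.78 to 1.63). H2-Ab1, a beta chain, had 35 and 47 UMIs (log2 ratio 0.71, 0.05 to 1.38). The other beta chain gene, H2-Eb1, had 25 and 32 UMIs with a log2 ratio of 0.64 (-0.16 to 1.45). The alpha chain gene H2-Aa had 38 and 43 UMIs with a log2 ratio of 0.46 (-0.20 to 1.13). So the intervals of Cd74 and H2-Ab1 left out 0 and those of H2-Aa and H2-Eb1 did not. The H2-Aa ratio was -0.070 without the leading nucleus of each library and -0.065 without nuclei that had 5% or more mitochondrial UMIs, so that its direction rests on few nuclei. Summed over the 4 genes the log2 ratio was 0.89 (0.60 to 1.17), on 171 and 260 UMIs. In all, 5 of the 10 members were at least 1.5-fold higher (Cd74, H2-Ab1, H2-Eb1, H2-D1 and H2-K1), where 9.89% of the 9509 genes with at least 20 UMIs were, and Tap2 was at least 1.5-fold lower, where 6.65% were. Since these ratios chose the members, nothing is read from that difference. Among the 1816 genes with at least 200 microglial UMIs, Cd74 had the highest ratio and H2-D1 the next, and the first gene outside the set was Hsd17b4 with a log2 ratio of 0.91. Among the 9509 genes with at least 20 UMIs, Cd74 was at place 112 and H2-D1 at place 162.

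**Figure D2:**
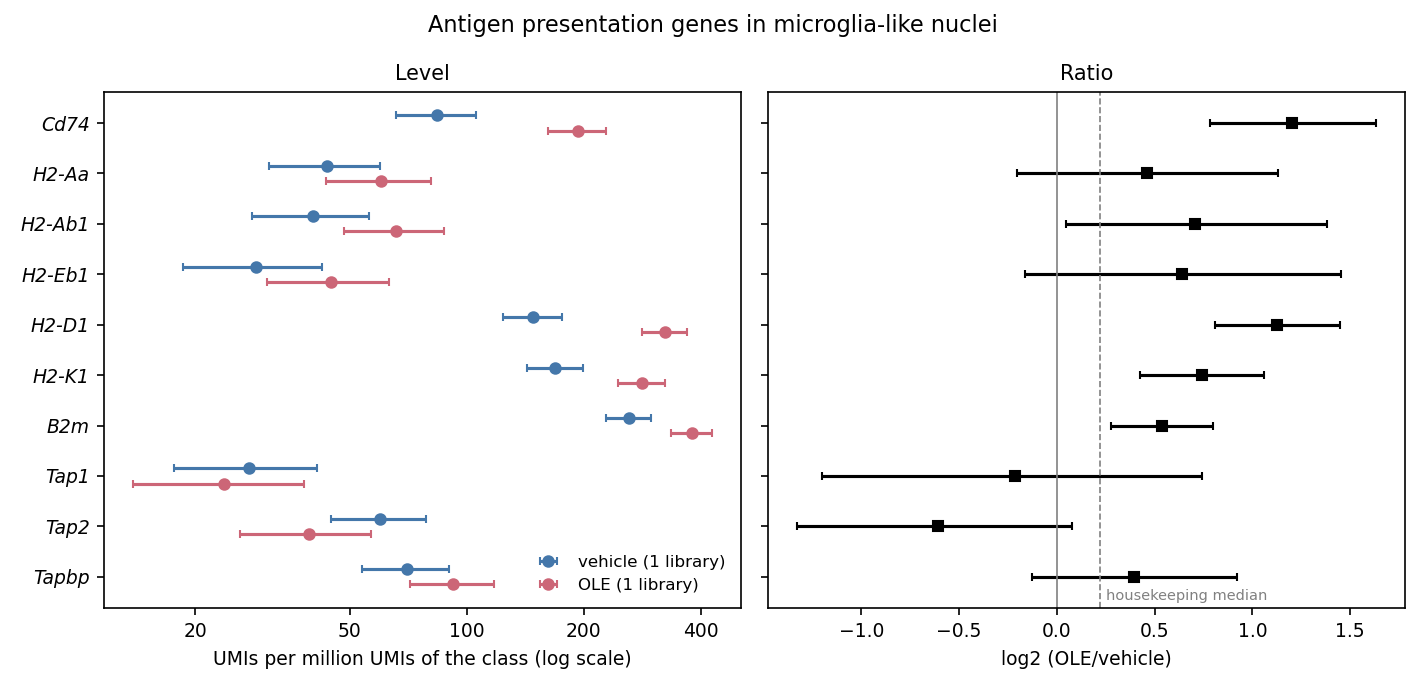
Level of each member in microglia-like nuclei of the vehicle (blue) and OLE (red) libraries, in CPM on a log scale with 95% Poisson intervals (left), and the log2 of the OLE level over the vehicle level with its exact 95% interval (right). The solid line marks a ratio of 0 and the dashed line the median of housekeeping genes at 0.22. Cd74 and H2-D1 are farthest to the right and Tap2 farthest to the left.

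The class II UMIs were carried by a minority of microglia-like nuclei. At least 1 UMI of Cd74 was found in 32 of 333 vehicle nuclei (9.61%, 6.67 to 13.3%) and in 49 of 268 OLE nuclei (18.3%, 13.8 to 23.4%). In glutamatergic-like nuclei, with a median depth of 20891.5 and 19234.5 UMIs, the shares were 1.87% and 1.83%. With every nucleus thinned to 1000 UMIs, the microglial shares were 5.42% (3.24 to 8.43%) and 9.77% (6.48 to 14.0%), against 0.165% and 0.0555% in glutamatergic-like nuclei. The microglial share was thus higher in the OLE library at equal depth, with overlapping intervals, and far above the neuronal share in both. A few nuclei held much of the Cd74 signal. In the OLE library 1 nucleus had 40 Cd74 UMIs and another 16, together 40.6% of the total, and in the vehicle library the leading nuclei had 16 and 7, together 31.5%. Without the leading nucleus of each library the log2 ratio of Cd74 was 1.07 and that of the 4 genes summed 0.78, and without nuclei that had 5% or more mitochondrial UMIs these were 0.87 and 0.61. Because UMIs gather in single nuclei, the counting intervals of class II sums are narrower than the spread among nuclei would give. Of the nuclei with Cd74, 14 of 32 vehicle (43.8%) and 18 of 49 OLE (36.7%) also had a UMI of H2-Aa, H2-Ab1 or H2-Eb1, compared with 17 of 301 (5.65%) and 12 of 219 (5.48%) of those without Cd74. The OLE nucleus with 40 Cd74 UMIs also had 18 of H2-Aa, 13 of H2-Ab1 and 3 of H2-Eb1, and the next had 8, 10 and 14.

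**Figure D3:**
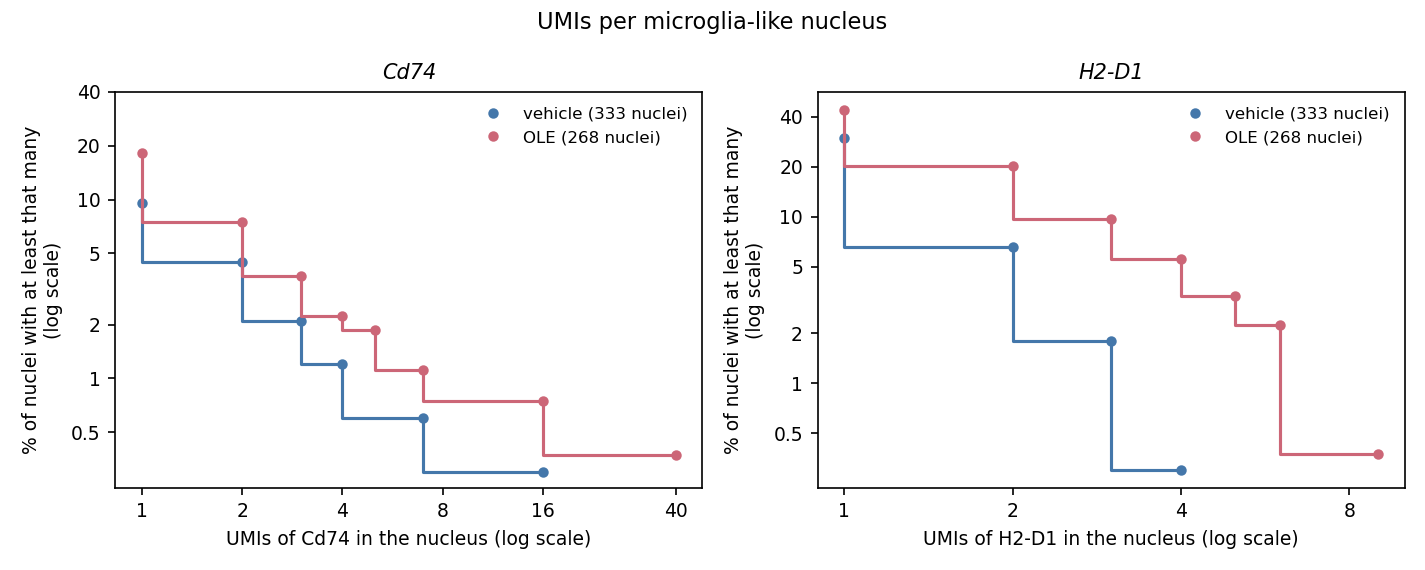
Share of microglia-like nuclei (y axis, % on a log scale) with at least the number of UMIs on the x axis (log scale) of Cd74 (left) and H2-D1 (right), for 333 vehicle nuclei (blue) and 268 OLE nuclei (red). For Cd74 the OLE curve ends at a single nucleus with 40 UMIs, while for H2-D1 no nucleus exceeds 9 UMIs and the OLE curve lies above at every count.

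Of the marker lists of other immune cells, those of border macrophages and of T and NK cells were higher in the OLE library. Within microglia-like nuclei the border macrophage list (7 of 8 genes higher) had 119 and 188 UMIs (log2 ratio 0.94, 0.60 to 1.29). The T and NK cell list (11 of 12 genes higher, Klrb1c at 0) had 11 and 74 (3.03, 2.11 to 4.10). Of those 74 UMIs, 68 were in 2 nuclei of the OLE library, which together held 10 UMIs of H2-D1, 8 of H2-K1 and no class II UMI. Border macrophage markers were gathered in few nuclei too, with 183 of 188 UMIs in 8 OLE nuclei that held 8 Cd74 and 18 H2-D1 UMIs, and 100 of 119 UMIs in 6 vehicle nuclei. The dendritic cell list had 44 and 31 UMIs with Xcr1, Clec9a and Ccr7 at 0, the B cell list 199 and 153 with Ms4a1, Pax5 and Igkc at 0, and the monocyte and neutrophil list 11 and 10. Their log2 ratios were -0.22, -0.10 and 0.15, with intervals that included 0. When all nuclei with a UMI of a border macrophage, dendritic or lymphocyte marker were left out, 194 vehicle and 162 OLE nuclei remained, and the log2 ratio was 1.15 for Cd74, 0.84 for class II summed, 1.14 for H2-D1 and 0.77 for class I summed. These ratios were about as large as with all nuclei.

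Reclustering split the microglia-like nuclei into a homeostatic-like subcluster of 167 vehicle and 133 OLE nuclei, a disease-associated-like (DAM-like) subcluster of 156 and 118, a border macrophage-like subcluster of 5 and 8, and an unnamed one of 5 and 9. Class II and class I behaved differently across the 2 large ones. Cd74 had 12 and 11 UMIs in homeostatic-like nuclei but 61 and 110 in DAM-like nuclei. In levels this was 27.3 and 33.6 CPM against 150 and 354. The class II level of DAM-like nuclei was 4.197-fold that of homeostatic-like nuclei in the vehicle library and 10.4-fold in the OLE library, with log2 ratios of 2.07 (1.52 to 2.65) and 3.38 (2.73 to 4.11). DAM-like nuclei thus had the higher class II level in both libraries. The distance between the libraries rests on few nuclei, since 2 OLE nuclei held 122 of the 208 class II UMIs of the DAM-like subcluster. Without the 2 nuclei with the most class II UMIs of each subcluster and library, an alternative added after the data had been seen, the folds were 6.19 in the vehicle and 6.52 in the OLE library. For class I the same comparison gave 1.17-fold and 1.06-fold, and for peptide loading 1.18-fold and 0.972-fold, with intervals that included no difference. The subclusters were defined from the expression of the same nuclei, so these folds are descriptions. Cd74 was found in 16.7% of the vehicle and 28.0% of the OLE DAM-like nuclei, and in 3.59% and 6.02% of the homeostatic-like ones, with median depths between 2290 and 2473.5 UMIs.

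The difference between the libraries was likewise placed differently. In DAM-like nuclei the OLE library stood above the vehicle library by a log2 ratio of 1.24 (0.78 to 1.72) for Cd74 and 1.00 (0.68 to 1.32) for class II summed. Without the 2 leading nuclei of each library these were 0.78 (0.17 to 1.41) and 0.40 (-0.046 to 0.85), so that much of the class II difference lay in few nuclei. In homeostatic-like nuclei class II summed had 35 and 21 UMIs, a log2 ratio of -0.31 (-1.17 to 0.51), and H2-Aa had 11 UMIs and 1 UMI. At a finer clustering (resolution 0.5) the class II value of homeostatic-like nuclei was 0.37, so that its direction depends on how the subclusters are drawn. Class I showed no such split, with log2 ratios of 0.88 (0.63 to 1.13) in homeostatic-like and 0.74 (0.50 to 0.98) in DAM-like nuclei. H2-D1 in particular had 62 and 105 UMIs in homeostatic-like nuclei (log2 ratio 1.18) and 63 and 97 in DAM-like nuclei (1.01). The 2 nuclei rich in T cell markers were in the OLE homeostatic-like subcluster. Tapbp had a log2 ratio of 0.90 (0.08 to 1.74) in homeostatic-like and -0.01 (-0.78 to 0.73) in DAM-like nuclei. In the border macrophage-like subcluster class II had 0 UMIs in 5 vehicle and 21 in 8 OLE nuclei, too few nuclei for a ratio.

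**Figure D4:**
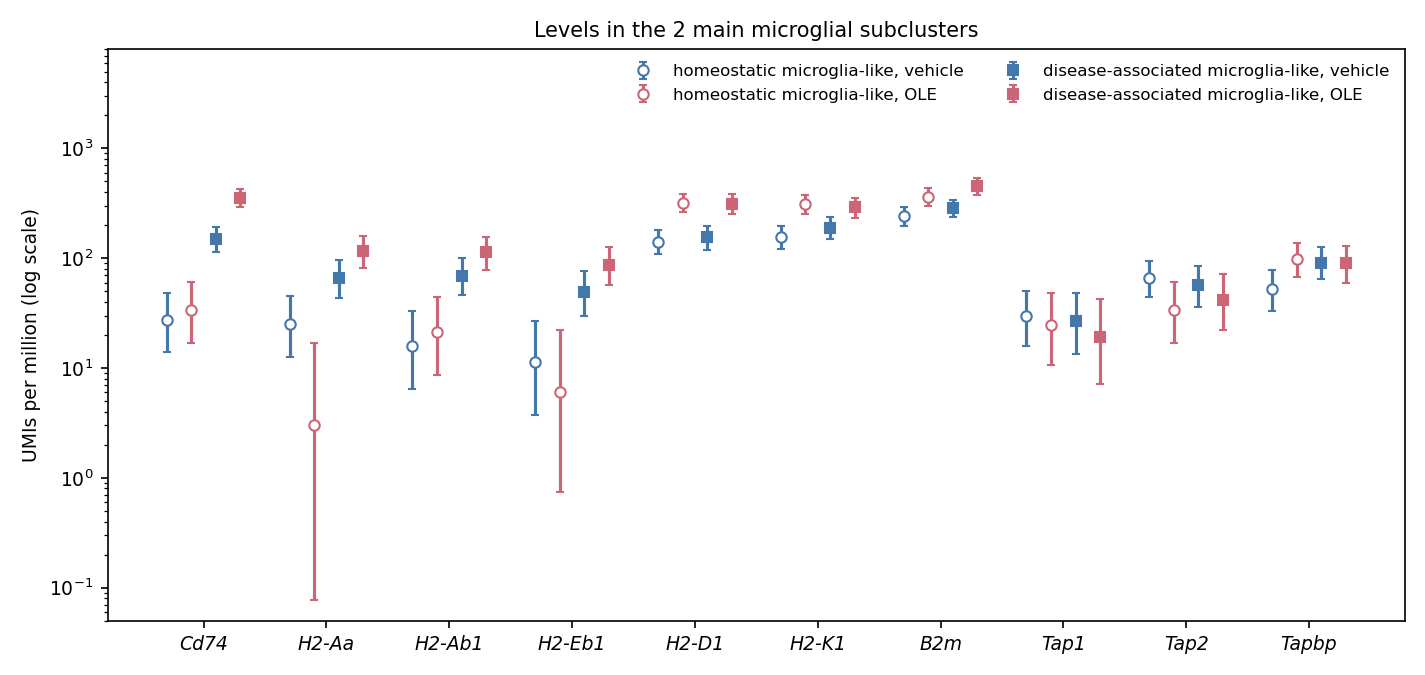
Level of each member in homeostatic-like (open circles) and DAM-like (filled squares) microglial nuclei of the vehicle (blue) and OLE (red) libraries, in CPM on a log scale with 95% Poisson intervals. Class II genes stand higher in DAM-like nuclei of both libraries, while H2-D1, H2-K1 and B2m stand higher in the OLE library in both subclusters.

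Class I genes were found in every class, with vascular and microglial nuclei at the top. H2-D1, a classical heavy chain, stood at 372 (285 to 476) CPM in vehicle and 517 (424 to 624) in OLE endothelial and mural-like nuclei, and at 148 (124 to 176) and 323 (283 to 368) in microglia-like nuclei. OPC-like, vascular leptomeningeal-like and oligodendrocyte-like nuclei followed at 36.4, 29.9 and 26.6 in the vehicle library, with overlapping intervals. Astrocyte-like, glutamatergic-like and GABAergic-like nuclei were lowest at 11.9, 10.0 and 7.42, again with overlapping intervals. H2-K1, the other classical heavy chain, had the same first and second place, 312 and 169 in the vehicle and 607 and 283 in the OLE library, but was lowest in neurons at 2.04 and 4.00 in the vehicle glutamatergic-like and GABAergic-like nuclei. B2m stood at 336 and 261 in vehicle endothelial and mural-like and microglia-like nuclei, where the intervals overlapped, and at 602 and 379 in the OLE library, where they did not. The endothelial and mural-like class rested on 21 vehicle and 42 OLE nuclei, and single nuclei held much of its signal. The leading nucleus had 25 of 62 vehicle and 23 of 109 OLE UMIs of H2-D1. For H2-K1 it had 15 of 52 and 33 of 128, and for B2m 28 of 56 and 29 of 127. The counting intervals of this class are therefore narrower than the spread among nuclei would give. In UMIs per nucleus, the log2 ratio of microglia-like to glutamatergic-like class I was 1.57 in the vehicle and 2.13 in the OLE library, against 4.72 and 5.16 by level.

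Between the libraries, all 3 class I members were higher in OLE microglia-like nuclei. H2-D1 had 129 vehicle and 231 OLE UMIs (log2 ratio 1.12, 0.81 to 1.45). H2-K1 had 147 and 202 (0.74, 0.43 to 1.06) and B2m had 227 and 271 (0.54, 0.28 to 0.80). The share of nuclei with the gene was also higher, 44.0% (38.0 to 50.2%) against 30.03% (25.1 to 35.3%) for H2-D1, 50.4% against 34.2% for H2-K1 and 54.9% against 42.0% for B2m. With every nucleus thinned to 1000 UMIs the shares were 22.6% (17.7 to 28.1%) against 11.1% (7.97 to 15.0%) for H2-D1, 25.6% against 16.9% for H2-K1 and 27.4% (22.2 to 33.2%) against 24.7% (20.1 to 29.7%) for B2m. At equal depth the intervals were thus apart for H2-D1 alone, and the B2m shares lay close together. Unlike Cd74, no single nucleus held many of these UMIs. The most H2-D1 UMIs in a nucleus were 4 in the vehicle and 9 in the OLE library, and without the leading nucleus of each library the log2 ratio was 1.11. The housekeeping genes of the same nuclei had a median of 0.22, and the median over all genes with at least 20 UMIs was 0.02.

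Class I was also higher in OLE nuclei of several other classes, on values that had no part in the choice of the members. Summed over H2-D1, H2-K1 and B2m, the log2 ratio was 0.76 (0.49 to 1.03) in endothelial and mural-like, 0.99 (0.31 to 1.69) in vascular leptomeningeal-like, 0.76 (0.31 to 1.21) in OPC-like, 0.58 (0.27 to 0.89) in oligodendrocyte-like and 0.32 (0.20 to 0.45) in glutamatergic-like nuclei. It was 0.48 (-0.01 to 0.98) in astrocyte-like and 0.22 (-0.12 to 0.56) in GABAergic-like nuclei. Outside microglia-like nuclei the sum was thus above 0 in all 7 named classes. Its interval left out 0 in all of these but astrocyte-like and GABAergic-like nuclei. These classes come from the same 2 libraries and share whatever differed between the pools or preparations. Housekeeping medians moved in the same direction, 0.35, 0.49, 0.14, 0.38, 0.49, 0.47 and 0.59 in those 7 classes in the order given. In glutamatergic-like, GABAergic-like and astrocyte-like nuclei the class I ratio was therefore below the housekeeping median or within 0.01 of it, and in the other named classes it lay above. How far the housekeeping shift bears on class I was not tested. The endothelial and mural-like value was 0.18 after the neuronal profile was subtracted and 0.098 in UMIs per nucleus, and the astrocyte-like value turned to -0.041 on nuclei thinned to 1000 UMIs and to -0.90 after that subtraction. A higher class I sum was not found in every unnamed cluster. Clusters 0 and 1 together had 1189 and 1915 UMIs, a log2 ratio of 0.09 (-0.01 to 0.20). Cluster 3 had 232 and 233, at -0.30 (-0.57 to -0.03), while cluster 22 stood at 1.44 (1.07 to 1.81). The intervals of clusters 20 (0.45) and 21 (0.29) included 0.

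By gene, H2-D1 led in OPC-like nuclei with 28 and 53 UMIs, a log2 ratio of 1.19 (0.50 to 1.90), and in vascular leptomeningeal-like nuclei with 7 and 20, a log2 ratio of 1.58 (0.28 to 3.06). H2-K1 led in endothelial and mural-like nuclei, 52 and 128 UMIs with a log2 ratio of 0.96 (0.49 to 1.46), and in glutamatergic-like nuclei, 86 and 125 UMIs with a log2 ratio of 0.64 (0.23 to 1.05). In oligodendrocyte-like nuclei H2-D1 had 58 and 81 UMIs, a log2 ratio of 0.78 (0.28 to 1.29), and H2-K1 had 34 and 45, a log2 ratio of 0.70 (0.03 to 1.39). B2m had an interval that left out 0 in endothelial and mural-like nuclei, at 0.84 (0.38 to 1.32), but not in oligodendrocyte-like (0.32), OPC-like (0.07) or neuronal classes. Counting members at least 1.5-fold higher among those with at least 20 UMIs, there were 2 of 5 in endothelial and mural-like nuclei, where 18.1% of genes were, 2 of 4 in vascular leptomeningeal-like (15.0%), 1 of 5 in astrocyte-like (11.0%), 2 of 4 in oligodendrocyte-like (9.69%), 2 of 3 in OPC-like (11.2%), 0 of 5 in GABAergic-like (9.57%) and 1 of 9 in glutamatergic-like nuclei (7.81%). All members past the fold there were class I genes, but the minimum of 20 UMIs largely fixed this. The 4 class II genes and Tap1 fell under it in each of these classes except glutamatergic-like nuclei. In OPC-like nuclei the 3 members with enough UMIs were H2-D1, H2-K1 and B2m. No member with at least 20 UMIs in these 7 classes was 1.5-fold lower, where 16.2%, 13.6%, 7.47%, 4.67%, 8.06%, 2.61% and 1.73% of genes were, in the same order. Over all nuclei H2-D1 and H2-K1 were past that fold (7.53% of genes higher, 1.91% lower). In clusters 0 and 1 together none of the 10 was (4.3% and 3.9%), nor was the 1 member with enough UMIs in cluster 20 (11.3% and 5.03%). In cluster 21 Tapbp was higher and Tap2 lower among 4 (8.95% and 6.72%).

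The balance of the 2 heavy chain genes differed between cell types and repeated in both libraries. H2-K1 made up 79.5% (64.7 to 90.2%) of the H2-K1 and H2-D1 UMIs in vehicle astrocyte-like nuclei and 80.6% (69.1 to 89.2%) in OLE ones. In glutamatergic-like nuclei it made up 16.9% (13.8 to 20.5%) and 19.5% (16.5 to 22.8%). Oligodendrocyte-like nuclei stood between them at 37.0% and 35.7%, microglia-like nuclei at 53.3% and 46.7%, and endothelial and mural-like nuclei at 45.6% and 54.0%. The intervals of astrocyte-like and glutamatergic-like nuclei lay apart in both libraries, on either side of the microglial ones. Within each named class the intervals of the 2 libraries overlapped. Since the paralogs share sequence, the share within a class depends on how shared reads were counted, which is the same for all classes.

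**Figure D5:**
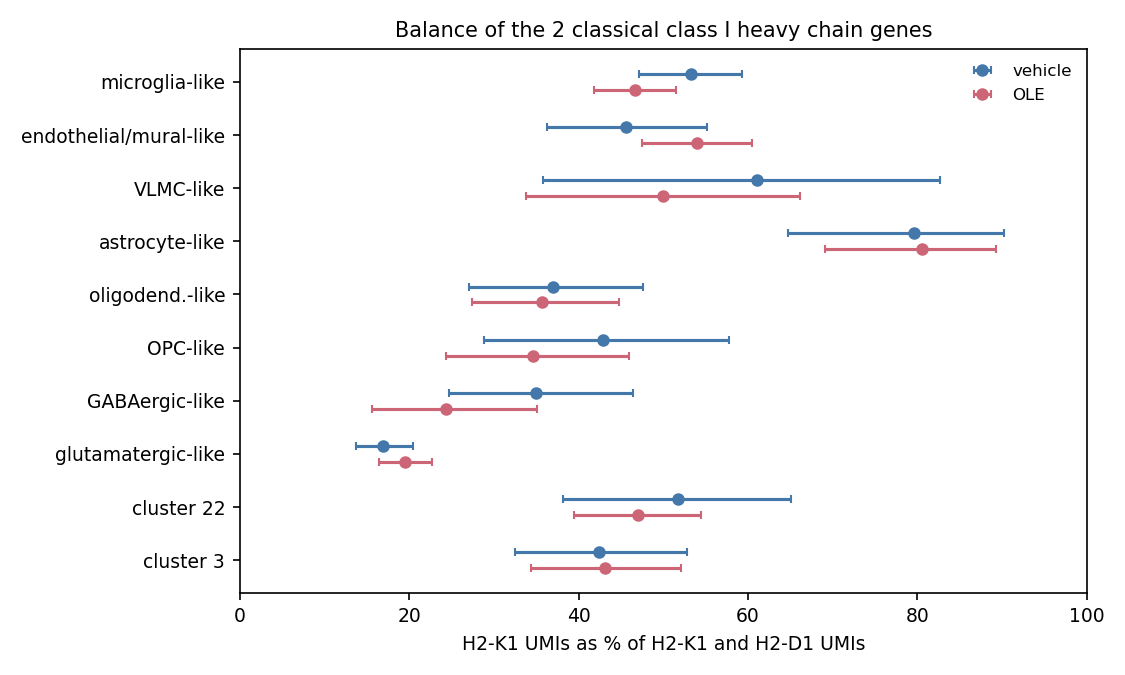
UMIs of H2-K1 as a percentage of the UMIs of H2-K1 and H2-D1 (x axis) by class, for the vehicle (blue) and OLE (red) libraries, with exact 95% intervals. Astrocyte-like nuclei lie near 80% and glutamatergic-like nuclei under 20% in both libraries.

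The peptide loading genes had lower ratios than the class I genes in microglia-like nuclei. Tap1, a subunit of the peptide transporter, had 24 and 17 UMIs in microglia-like nuclei, a log2 ratio of -0.21 (-1.20 to 0.74). Tap2, its partner subunit, had 52 and 28 UMIs, a log2 ratio of -0.61 (-1.33 to 0.08). Tapbp had 61 and 66 UMIs, a log2 ratio of 0.40 (-0.13 to 0.92). Summed, the 3 gave 137 and 111 UMIs (log2 ratio -0.02, -0.40 to 0.35), beside an interval of 0.60 to 0.94 for class I summed. The class I sum holds H2-D1, whose microglial ratio helped to choose the set, so nothing is read from that gap. The interval of B2m alone (0.28 to 0.80) overlapped that of the peptide loading sum. In the other 7 named classes the sum lay between -0.07 and 0.46 and every interval included 0. In the unnamed cluster 22 it had 77 and 127 UMIs, a log2 ratio of 0.54 (0.12 to 0.97), beside a housekeeping median of 0.84. In the other unnamed clusters its interval included 0. The one member of the 3 whose interval left out 0 in a named class was Tap2 in glutamatergic-like nuclei, with 189 and 225 UMIs (log2 ratio 0.35, 0.07 to 0.64). Levels of peptide loading genes were less unequal between classes than those of class II, 158 CPM in vehicle microglia-like, 192 in endothelial and mural-like, 103 in vascular leptomeningeal-like, 42.2 in astrocyte-like and 12.96 in glutamatergic-like nuclei.

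The unnamed clusters 22 and 3 also carried class II. Cluster 22, of 42 nuclei in each library, was closest to vascular leptomeningeal nuclei by its markers (relative level 0.4454) and fell just short of the required 3 times the next class, astrocytes (0.1485). When the clusters were built from log-normalized counts, a cluster of 42 and 44 nuclei with the same 10 leading genes passed that rule and was named vascular leptomeningeal-like (0.452 against 0.146). In cluster 22 Cd74 had 131 and 135 UMIs, 323 and 293 CPM, a log2 ratio of -0.14 (-0.50 to 0.22). The interval of Cd74 thus included 0, while H2-Aa had 33 and 63 UMIs with a log2 ratio of 0.75 (0.12 to 1.40). Class I in cluster 22 had 82 and 252 UMIs, a log2 ratio of 1.44 (1.07 to 1.81). That was the highest of any class or cluster, beside a housekeeping median of 0.84. The leading nucleus had 4 of 28 vehicle and 23 of 96 OLE UMIs of H2-D1. For H2-K1 it had 6 of 30 and 24 of 85, and for B2m 6 of 24 and 19 of 71. H2-D1 was found in 19 of 42 nuclei of each library, H2-K1 in 15 and 21 and B2m in 14 and 21. Cd74 was gathered too, with 30 vehicle and 55 OLE UMIs in 1 nucleus each. The counting intervals of cluster 22 are therefore narrower than the spread among nuclei would give. Members at least 1.5-fold higher numbered 4 of 9, where 18.5% of genes were, and 0 were lower (10.6%). Of the cluster's nuclei with Cd74, 16 of 19 in the vehicle and 23 of 23 in the OLE library also had another class II gene. In cluster 22 the border macrophage list had 4 and 4 UMIs, with Mrc1, F13a1 and Pf4 at 0. The dendritic cell list had 17 and 26, all of Zbtb46, with Flt3, Itgae, Xcr1 and Clec9a at 0. That was 42 and 56 CPM, against 51 and 43 in microglia-like nuclei. The T and NK cell list had 1 and 5 UMIs, with Cd3e, Cd3d and Trac at 0, and the monocyte and neutrophil list 0 and 0. The 15 microglial markers summed to 128 and 154 CPM, against 12260 and 14040 in microglia-like nuclei. Not all lists were low there. The disease-associated microglia list stood at 1452 and 2677 CPM, against 6077 and 7634 in microglia-like and 1127 and 1523 in endothelial and mural-like nuclei. The astrocyte list stood at 1736 and 2584 CPM in cluster 22 and the vascular leptomeningeal list at 2103 and 2151. The name of cluster 22 thus depends on how the clusters were built, and with the other naming a named class besides microglia-like nuclei carried class II. In cluster 3, led by mitochondrial and ferritin transcripts, Cd74 had 79 and 66 UMIs with a log2 ratio of -0.57 (-1.06 to -0.08), of which a single vehicle nucleus held 30. Without the leading nucleus of each library that ratio was -0.084 (-0.66 to 0.49), and without 2 it was 0.165 (-0.47 to 0.81). In that cluster 2 of 8 members were at least 1.5-fold lower (8.07% of genes) and none higher (14.3%).

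The genes that work beside the members were followed in microglia-like nuclei from lists of general knowledge. Of 16 other class I genes in the files, 7 had at least 20 UMIs, 1 was at least 1.5-fold higher and 0 lower, with a median log2 ratio of 0.42. H2-T23, the non-classical gene of the Qa-1 molecule, had 35 and 45 UMIs (0.65), H2-Q4 had 23 and 22 (0.22), H2-T22 had 22 and 18 (-0.01) and H2-M3, which presents formylated peptides, had 18 and 21 (0.51). Of the class II loading genes and endosomal proteases, 6 of 10 had enough UMIs, 2 were higher, 0 lower, and the median was 0.42. Cathepsin S (Ctss), which trims the invariant chain, had 559 and 671 UMIs, a log2 ratio of 0.55 (0.38 to 0.71), and cathepsin L (Ctsl) 191 and 270, a log2 ratio of 0.78 (0.51 to 1.06). Ctsb and Lgmn, further lysosomal proteases, stood at 0.29 and 0.21.

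Of the genes that supply and fold class I peptides and chains, 10 of 13 had enough UMIs, 1 was higher, 0 lower, and the median was 0.13, near the 0.22 of 10 housekeeping genes. The chaperones Canx, Calr and Pdia3 stood at 0.24, 0.42 and 0.47, and Lnpep, a peptidase, at 0.00. The immunoproteasome genes Psmb8 and Psmb9 had 12 and 10, and 30 and 22 UMIs. For transcriptional control, 8 of 13 had enough UMIs, 2 were higher, 0 lower, and the median was 0.16. Nlrc5, the coactivator of class I genes, had 42 and 55 UMIs, a log2 ratio of 0.67 (0.07 to 1.29). Irf2, Creb1 and Nfyc stood at 0.23, 0.31 and -0.28. Of 29 interferon response genes 17 had enough UMIs, 4 were higher (Ifit2, Bst2, Usp18, Slfn2), 0 lower, and the median was 0.36. Bst2 had 14 and 34 UMIs, a log2 ratio of 1.56 (0.63 to 2.58), and the genes of that list with the most UMIs, Trim30a, Rnf213, Sp100 and Parp14, stood at 0.28, 0.22, 0.53 and 0.56. Of 11 co-stimulatory and T cell contact genes 7 had enough UMIs, 1 was higher, 0 lower, and Cd86, a ligand of CD28, had 235 and 193 UMIs with a log2 ratio of 0.00. Cd83, Lag3 and Icam1 stood at 0.50, 0.30 and -0.43. All of these counts stand beside the 9.89% of genes that were 1.5-fold higher and the 6.65% that were lower.

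The pattern of a member over the 8 named classes and both libraries (16 points) was set against that of 13634 genes with at least 200 UMIs, as Pearson's r of log2 (CPM plus 10). The points share libraries and differ in depth, so r is a description. For Cd74 the nearest were F13a1 (0.99), Abcc3 (0.98), Tyrobp (0.97), Ncf1 (0.97) and Pld4 (0.97). In the other named classes Cd74 reached at most 23.7 CPM, so its r rests largely on the microglial points, which chose Cd74. F13a1 is a border macrophage marker and Tyrobp a myeloid adaptor. The microglia-like nuclei rich in border macrophage markers held 1 of 73 vehicle and 8 of 138 OLE Cd74 UMIs. For H2-D1 the nearest was B2m (0.96), followed by Leprot, Akr1a1, Rpl10a and Cdc26 (0.95 to 0.94). For B2m they were Rpl10a, Akr1a1, Msn, Clic1 and Pald1 (0.98 to 0.97).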

How the data were processed

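The values analysed were the UMI counts per gene and nucleus that the authors deposited as 1 sparse matrix per library, raw and without normalization. Per the labels, 10X 3′ reads were aligned with Cell Ranger 3.0.1 (3.0.2 in the matrix header) to an mm10 pre-mRNA reference and analysed in Seurat 4.0.4. Introns are thus counted, and free RNA adds UMIs to all nuclei. Here doublets were scored with Scrublet (scanpy 1.11.5, expected rate 5%). Its threshold marked 0.119% and 0.113% of nuclei, so the top 5% of scores, with ties, were left out (372 vehicle and 311 OLE nuclei). Nuclei were clustered with SCTransform and the Louvain method (Seurat 5.3.0, sctransform 0.4.2, R 4.3.3, 3000 variable genes, 30 components, resolution 0.4), and microglia-like nuclei again (15 components, resolution 0.3). A cluster was named where at least 3 markers of a class were in 10% of nuclei, their relative level was at least 3 times that of any other class, and no other class had more of its top 10 genes, a rule set after the clusters had been seen. UMIs were summed per class and library. Ratios have exact conditional binomial (Clopper-Pearson) intervals, levels Poisson intervals. The calculation was checked on simulated counts. Named genes are the members, the 4 genes of each list with the most UMIs, the 5 genes most like Cd74, H2-D1 and B2m, and those singled out for their values. Some genes of the lists are not reported here. The tools were scipy 1.17.1, numpy 2.4.6 and pandas 2.3.3 under Python 3.11.15, with plots by matplotlib 3.10.9. The members and lists were chosen with earlier results of these data known.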

Additional observations from a re-analysis of the deposited data

Results flagged for a closer look

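Members whose ratio had intervals on opposite sides of 0 in different nuclei were looked for among genes with at least 20 UMIs in a class, and 10 in a subcluster. B2m was higher in the OLE library in microglia-like (log2 ratio 0.54), endothelial and mural-like (0.84) and cluster 22 nuclei (1.38). It was lower in cluster 3 (-0.68). In cluster 22 the leading nucleus held 6 of 24 vehicle and 19 of 71 OLE UMIs of B2m. Cd74 was higher in microglia-like nuclei (1.20) and lower in cluster 3 (-0.57), where 1 vehicle nucleus held 30 of 79 UMIs and the ratio without the leading nucleus of each library was -0.084 (-0.66 to 0.49). H2-Aa had ratios of 0.80 in DAM-like and -3.04 in homeostatic-like microglial nuclei, the latter on 11 and 1 UMIs. In DAM-like nuclei 2 OLE nuclei held 26 of the 36 UMIs, and without the 2 leading nuclei of each library the ratio was -0.38 (-1.67 to 0.83). At a clustering resolution of 0.2 the DAM-like value was 0.64 (-0.11 to 1.42), and at 0.5 homeostatic-like nuclei had 5 UMIs and 0, with an interval that reached up to 0.50. The opposite directions of H2-Aa therefore depend on few nuclei and on how the subclusters were drawn. With 1 library per treatment the differences between these ratios were not tested.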

How the results depend on the processing

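No paired analysis was possible because each treatment has 1 library. Of 51 results, recomputed to give 294 alternative values, 273 stayed within the counting interval (or, for a count, within 1.5 times) and 2 whose interval left out 0 changed sign, both without the 2 leading nuclei of each library: H2-Aa in DAM-like nuclei (-0.38) and Cd74 in cluster 3 (0.165). The same setting, added after the data had been seen, moved class II in DAM-like nuclei from 1.00 to 0.40. In microglia-like nuclei the log2 ratio of class I summed lay between 0.69 and 0.83, that of class II between 0.61 and 0.98 and that of peptide loading between -0.12 and 0.04. These ranges include the restriction to homeostatic-like and DAM-like nuclei, which was added after the data had been seen. The count of 5 members at least 1.5-fold higher became 3 with a minimum of 100 UMIs, 8 at a lower fold and 2 at a fold of 2. Class I in endothelial and mural-like nuclei became 0.098 per nucleus, 0.18 with a neuronal profile subtracted and 1.18 without nuclei rich in mitochondrial UMIs, and in astrocyte-like nuclei -0.041 on thinned nuclei and -0.90 with that profile subtracted. Peptide loading became -2.00 on thinned endothelial and mural-like nuclei, -1.04 with the profile subtracted in astrocyte-like nuclei and 0.44 on thinned glutamatergic-like nuclei. The log2 ratio of microglia-like to glutamatergic-like levels, 4.72 (vehicle) and 5.16 (OLE) for class I and 6.89 and 7.78 for class II, became 1.57, 2.13, 3.74 and 4.75 per nucleus, and 6.17 for class II on thinned vehicle nuclei. The cause of these moves was not tested. Without doublet removal no endothelial, mural or vascular leptomeningeal class was named, so those values could not be had, and no count of members is given for thinned nuclei. Depth limits Tap1 the most, with 24 and 17 microglial UMIs, and its log2 ratio was 1.06 on thinned nuclei.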
